A study of Danio rerio with 24 samples.

Results

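The genes described here are 7 zebrafish genes of skeletal muscle, taken by their gene IDs out of 32520 genes listed in the count table. They are 3 muscle regulators, myf5 (ENSDARG00000007277), myod1 (ENSDARG00000030110) and myog (ENSDARG00000009438), and 4 genes of the contracting fibre, mylpfa (ENSDARG00000053254, listed as MYL11 in the table of gene names), ckma (ENSDARG00000035327), actc1b (ENSDARG00000099197) and tpma (ENSDARG00000033683). All 7 had enough reads to be tested, among 19597 genes that passed edgeR's filter on low counts. RNA came from whole embryos of the Tropical 5D strain in 6 groups, vitamin E deficient (E–) and vitamin E sufficient (E+) embryos taken 12 h, 18 h or 24 h after fertilization (12, 18 or 24 hpf), with 4 pools of 10 embryos in each group. The diets were given to the parents and not to the embryos: adults received the E– or E+ diet from 55 days post-fertilization and were spawned in groups after 80 days to 9 months on it. The labels number the pools as separate samples, but do not say whether they came from separate spawnings, so that p-values below measure the spread between these pools.

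In vertebrate embryos, skeletal muscle of the trunk forms from the somites. Myf5 and Myod commit mesoderm cells to the muscle fate, Myogenin then drives their differentiation, and the differentiating fibres switch on actin, myosin, tropomyosin and the creatine kinase that buffers their ATP. In zebrafish, myf5 and myod1 are already active in mesoderm that has not yet formed somites, while genes of the contractile apparatus follow as the somites mature and the trunk begins to twitch.

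Libraries were made with a kit that reads the 3′ end of each mRNA, and the pools held 10537272 to 20973407 reads counted on genes, with a median of 15436757.5. Levels are given as CPM, the reads of a gene relative to the size of its library, with library sizes scaled by TMMwsp, without division by gene length, and are compared between groups for 1 gene at a time. The most abundant gene alone held 25.1% to 39.2% of these reads. Replicates 1 and 2 of every group were sequenced on lane 7 and replicates 3 and 4 on lane 8, so that lane is balanced over the groups. In RNA from whole embryos, a lower value of a muscle gene can mean fewer muscle cells or less RNA per cell, and these cannot be told apart.

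The main course of all 7 genes followed developmental time, in both diets. At a false discovery rate (FDR) under 0.1 in edgeR's quasi-likelihood test, adjusted by Benjamini–Hochberg over the 19597 genes, each of the 7 differed between 12 and 18 hpf and between 18 and 24 hpf in E– embryos and also in E+ embryos. From 12 to 18 hpf, 6 rose and 1, myf5, fell. From 18 to 24 hpf, the 4 fibre genes rose further and the 3 regulators fell. Of all genes tested, 21.7% were called higher and 20.4% lower at 18 than at 12 hpf in E– embryos, against 22.8% higher and 21.1% lower in E+ embryos. Between 18 and 24 hpf, 11.2% were called higher and 10.6% lower in E– embryos, and 13.1% higher and 11.7% lower in E+ embryos.

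**Figure D1:**
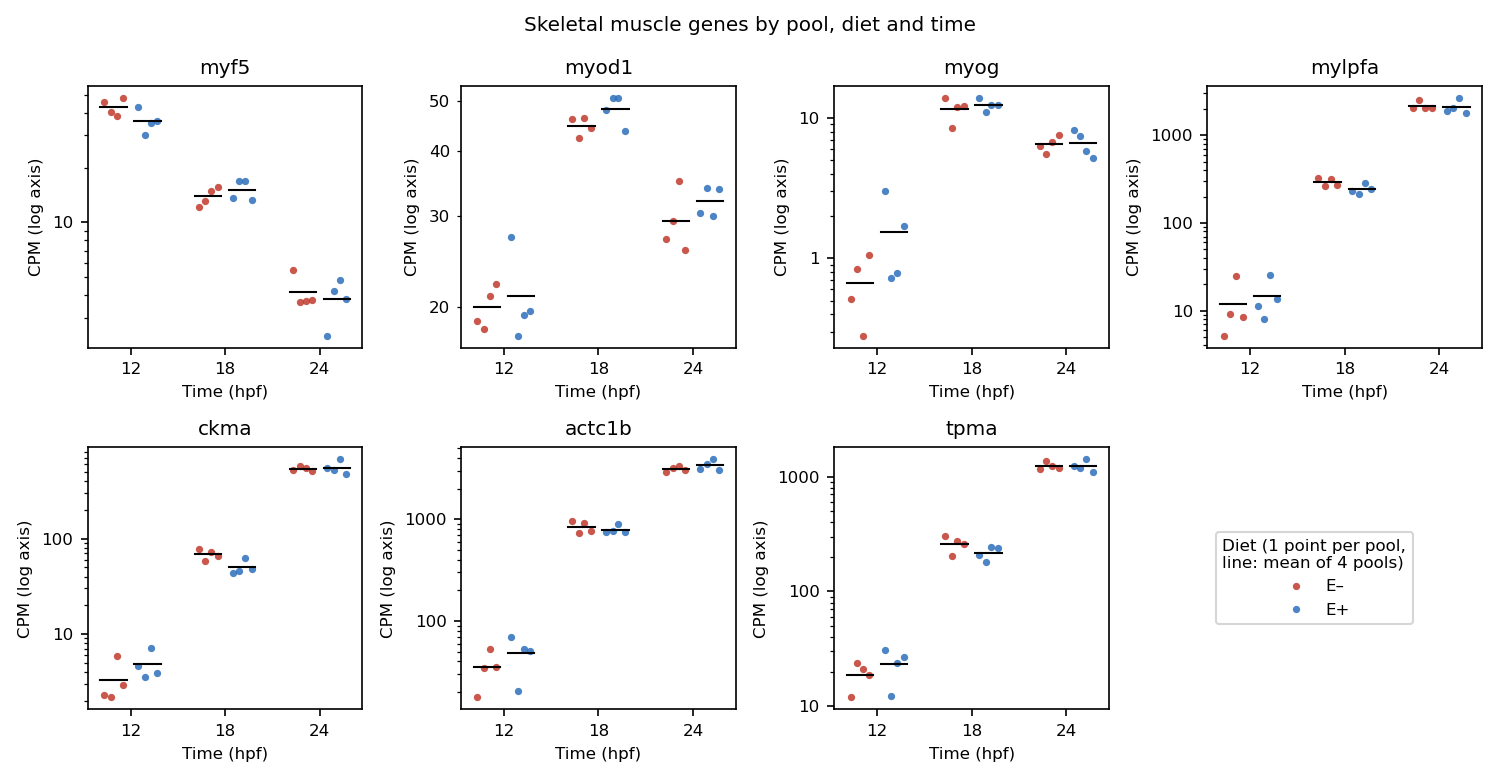
CPM of each gene (log axis) over the 3 times (hpf) in E– pools (left of each pair) and E+ pools (right), with 1 point per pool and a line at the mean of 4 pools. myf5 falls over time, myod1 and myog peak at 18 hpf, and the 4 fibre genes climb from 12 to 24 hpf, with their widest relative scatter between pools at 12 hpf.

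Among the regulators, myf5 was the only one at its highest at 12 hpf. In E– embryos it averaged 43.1 ± 4.63, 14.0 ± 1.59 and 4.16 ± 0.90 CPM over the 3 times (SD, n = 4 each). In E+ embryos it averaged 36.1 ± 5.26, 15.1 ± 1.99 and 3.80 ± 1.03 CPM at the same times (SD, n = 4 each). The log2 fold change (log2FC) of myf5 from 12 to 18 hpf was −1.63 (SE 0.15) in E– embryos and −1.25 (SE 0.15) in E+ embryos, and from 18 to 24 hpf it was −1.75 (SE 0.17) and −1.98 (SE 0.17) in E– and E+ embryos. No pool of a later time reached the level of any pool of the time before it.

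The myod1 transcript peaked at 18 hpf. It averaged 20.0 ± 1.88, 44.8 ± 1.88 and 29.3 ± 4.07 CPM at the 3 times in E– embryos, and 21.0 ± 4.34, 48.3 ± 3.30 and 32.0 ± 2.17 CPM in E+ embryos (SD, n = 4 each). The rise to 18 hpf had a log2FC of 1.16 (SE 0.12) in E– embryos and 1.2 (SE 0.12) in E+ embryos, and the fall to 24 hpf one of −0.61 (SE 0.12) and −0.59 (SE 0.11). The first step differed between E– and E+ embryos by −0.04 (SE 0.16) on the log2 scale.

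The myog transcript was at the edge of detection at 12 hpf. It had 4 to 18 reads per pool in E– embryos and 13 to 56 reads in E+ embryos at that time, so that counting error alone is large there. It then averaged 11.6 ± 2.26 CPM at 18 hpf and 6.51 ± 0.83 CPM at 24 hpf in E– embryos, against 12.4 ± 1.15 and 6.65 ± 1.41 CPM in E+ embryos (SD, n = 4 each). The log2FC from 12 to 18 hpf was 4.07 (SE 0.33) in E– embryos and 3.00 (SE 0.29) in E+ embryos. The fall from 18 to 24 hpf was smaller, at −0.84 (SE 0.26, edgeR FDR 0.0212) in E– embryos and −0.90 (SE 0.25, edgeR FDR 0.00951) in E+ embryos. Within single lanes, with 2 pools per group, this fall kept its direction but lost its call in E– embryos (edgeR FDR 0.175 on lane 7 and 0.165 on lane 8) and, on lane 7, in E+ embryos (edgeR FDR 0.345).

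The 4 fibre genes rose at both steps. mylpfa, which encodes the regulatory light chain of fast myosin, averaged 11.9 ± 8.76, 295 ± 31.4 and 2162 ± 239 CPM over the 3 times in E– embryos, and 14.6 ± 7.64, 244 ± 31.0 and 2103 ± 393 CPM in E+ embryos (SD, n = 4 each). From 12 to 18 hpf its log2FC was 4.65 (SE 0.28) in E– and 4.05 (SE 0.27) in E+ embryos. Only 94 of the other genes tested had a larger log2FC in E– embryos, and 73 in E+ embryos.

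actc1b, an alpha-actin of muscle thin filaments, averaged 35.1 ± 14.4, 842 ± 109 and 3116 ± 180 CPM over the 3 times in E– embryos, and 48.3 ± 20.2, 789 ± 76.3 and 3379 ± 372 CPM in E+ embryos (SD, n = 4 each). Its log2FC from 12 to 18 hpf was 4.59 (SE 0.23) in E– and 4.03 (SE 0.23) in E+ embryos, and from 18 to 24 hpf 1.89 (SE 0.20) and 2.10 (SE 0.21). tpma, the alpha-tropomyosin that lies along those filaments, also rose at both steps, from 18.9 ± 5.00 CPM at 12 hpf through 260 ± 41.5 CPM at 18 hpf to 1239 ± 85.9 CPM at 24 hpf in E– embryos (SD, n = 4 each). In E+ embryos tpma averaged 23.4 ± 7.96, 218 ± 29.5 and 1235 ± 129 CPM (SD, n = 4 each).

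ckma, the muscle creatine kinase, was the fibre gene with the most even steps. It averaged 3.31 ± 1.71, 68.2 ± 8.95 and 536 ± 27.2 CPM over the 3 times in E– embryos, against 4.80 ± 1.58, 50.0 ± 9.04 and 552 ± 87.4 CPM in E+ embryos (SD, n = 4 each). In E– embryos the log2FC was 4.38 (SE 0.20) for the first step and 2.97 (SE 0.16) for the second. In E+ embryos the steps were nearly equal, at 3.36 (SE 0.18) and 3.46 (SE 0.16). Together the 4 fibre genes took 0.00649% of the gene counts of an E– pool and 0.00876% of an E+ pool on average at 12 hpf. The shares were 0.151% in E– and 0.130% in E+ pools at 18 hpf, and 0.719% in E– and 0.748% in E+ pools at 24 hpf.

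The question of the diets is whether E– embryos differed from E+ embryos in these genes at a given time. None of the 7 was called at any of the 3 times. At 12 hpf 0 of 7 were called, where 0.806% of all genes tested were. At 18 hpf 0 of 7 were called, against 0.398% of all genes. At 24 hpf edgeR called 0 of 7 and 0.0% of all genes, although 1308 genes had an unadjusted p under 0.05 and DESeq2 called 23 genes. With the 3 times tested together, 0 of 7 were called beside 1.12% of all genes. The number of the 7 with an unadjusted p under 0.05 was 3 at 12 hpf, 1 at 18 hpf, 0 at 24 hpf and 2 over the 3 times. Of all 19597 genes, 2079, 1792 and 1308 had such a p at the single times, and 2271 over the 3 times. DESeq2 called 1 of the 7 at 12 hpf, beside 307 of all genes, and none of the 7 in the other E– to E+ tests.

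These counts of 0 depend on which genes are tested. In a fit of all 29109 genes with at least 1 read the log2FCs were nearly the same but their errors were smaller, at 0.33 for myog, 0.17 for ckma and 0.14 for actc1b at 12 hpf. That fit called 338, 177 and 26 of the 29109 genes at 12, 18 and 24 hpf. Of the 7 it called 3 at 12 hpf, myog (edgeR FDR 0.0586), ckma (edgeR FDR 0.0818) and actc1b (edgeR FDR 0.0769), all lower in E– embryos. It called 1 at 18 hpf, ckma, higher in E– embryos (edgeR FDR 0.0581), and 0 at 24 hpf. The log2FCs of these calls were −1.18, −0.57 and −0.47 at 12 hpf and 0.44 at 18 hpf.

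**Figure D2:**
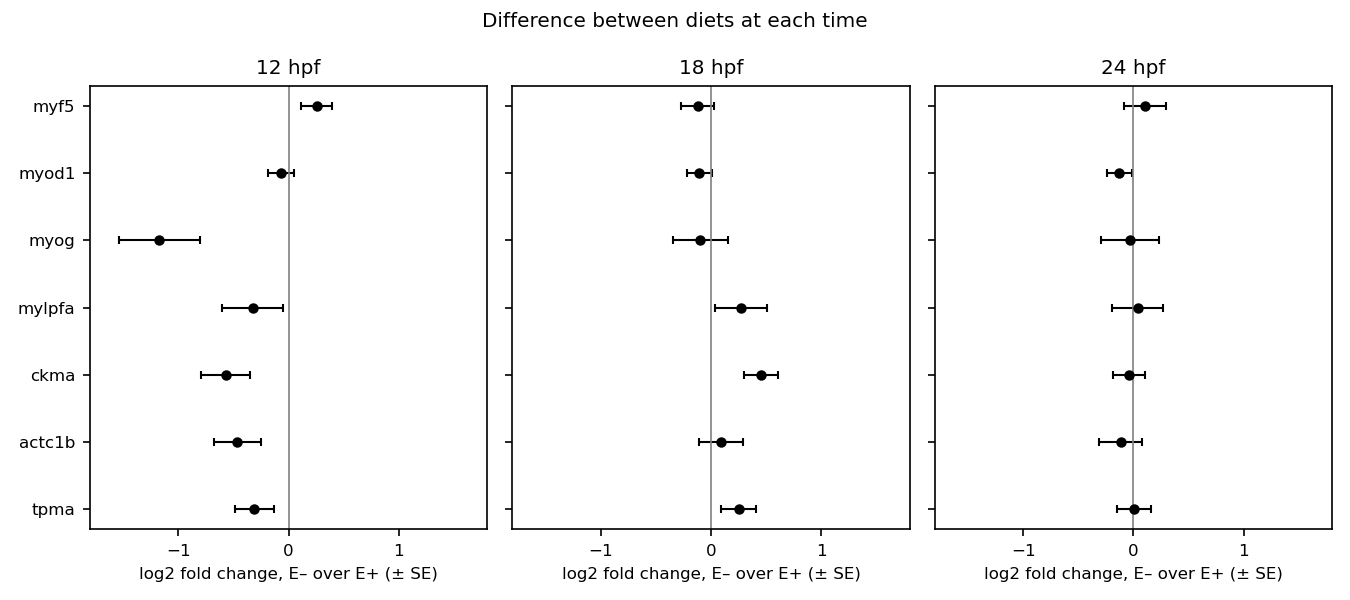
Log2FC of E– over E+ embryos for the 7 genes at 12, 18 and 24 hpf, with bars of 1 SE from the quasi-likelihood fit of all 24 pools. At 12 hpf 6 of the 7 lie below 0, at 18 hpf the 4 fibre genes lie above 0 and the 3 regulators below, and at 24 hpf all lie between −0.13 and 0.11.

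At 12 hpf the median log2FC of the 7 was −0.32, beside −0.002 for all genes tested, and 6 of the 7 had values below 0. Of the lists outside muscle that are described below, the 6 red blood cell markers had a median of −0.46 at 12 hpf, with 4 of 6 below 0. The other medians at that time were nearer to 0. They were −0.07 (notochord), −0.02 (neural), 0.0003 (presomitic mesoderm), 0.07 (heart), 0.08 (epidermis) and 0.08 (housekeeping). The lists of other muscle genes described below also had medians nearer to 0 than the 7. These were −0.20 (fast muscle), −0.17 (energy metabolism), −0.10 (chaperones), −0.08 (slow muscle) and −0.02 (other regulators). Among the 7, the value furthest from 0 was that of myog. It had 0.51, 0.83, 0.28 and 1.05 CPM in the 4 E– pools, against 3.00, 0.72, 0.78 and 1.71 CPM in the 4 E+ pools. The groups overlapped, since replicates 2 and 3 of the E+ embryos lay within the E– range, and the high E+ mean came from replicates 1 and 4. The log2FC was −1.17 (SE 0.37, edgeR FDR 0.177), and 412 of the other genes tested had a lower one.

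ckma had 2.30, 2.18, 5.82 and 2.92 CPM in E– pools and 4.65, 3.57, 7.06 and 3.92 CPM in E+ pools at 12 hpf. In E– embryos 3 of the 4 pools lay below every E+ pool, and replicate 3 lay above 3 of the E+ pools. Its log2FC was −0.57 (SE 0.23, edgeR FDR 0.324). For actc1b the E– pools had 17.8, 34.3, 53.1 and 35.0 CPM, and the E+ pools 68.9, 20.6, 52.7 and 50.9 CPM. Each diet had 1 pool well below its others, E– replicate 1 and E+ replicate 2, and the log2FC was −0.46 (SE 0.21, edgeR FDR 0.414).

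mylpfa and tpma showed the same overlap. mylpfa had 5.17, 9.16, 24.8 and 8.47 CPM in E– pools and 11.4, 7.91, 25.5 and 13.7 CPM in E+ pools, with replicate 3 the highest in both diets, and its log2FC was −0.32 (SE 0.28, edgeR FDR 0.753). tpma had 12.0, 23.6, 21.2 and 18.8 CPM in E– pools and 30.7, 12.3, 23.6 and 27.0 CPM in E+ pools, with a log2FC of −0.31 (SE 0.18, edgeR FDR 0.555). myf5 was the gene with a value above 0, at 0.26 (SE 0.14, edgeR FDR 0.533), and myod1 was at −0.07 (SE 0.12, edgeR FDR 0.911).

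Single pools moved these 12 hpf values in both directions. Without E+ replicate 1, the highest E+ pool for myog, the log2FC of myog was −0.61, and without E+ replicate 3 that of mylpfa was 0.10, above 0. The log2FCs were also taken over 34 alternatives, which include the main fit read at FDR under 0.05. They ranged from −1.48 to −0.61 for myog (edgeR FDR 0.0518 to 0.603, called in 4). For ckma they ranged from −0.97 to −0.31 (called in 2) and for actc1b from −0.77 to −0.23 (called in 2). The range was −0.95 to 0.10 for mylpfa (called in 1) and −0.52 to −0.14 for tpma (called in 1). Without E+ replicate 2, which was the lowest E+ pool for myog, mylpfa, ckma, actc1b and tpma, edgeR called 3 of the 7, myog (log2FC −1.40, FDR 0.0518), actc1b (log2FC −0.72, FDR 0.0278) and tpma (log2FC −0.52, FDR 0.090). Without E– replicate 3, the highest E– pool for mylpfa, ckma and actc1b, edgeR called mylpfa (log2FC −0.95, FDR 0.0680) and ckma (log2FC −0.97, FDR 0.0417). Without E+ replicate 3, myog alone was called (log2FC −1.40, FDR 0.0916). The number of all genes called in these fits is not given here, so these counts have no background beside them. Within lane 7 the log2FCs of myog, ckma and actc1b were −1.46, −0.87 and −0.77, and within lane 8 they were −0.80, −0.38 and −0.23, none of them called.

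At 18 hpf the value furthest from 0 belonged to ckma, and it lay on the other side. ckma had 78.3, 57.6, 72.0 and 64.9 CPM in E– pools and 43.1, 46.1, 63.3 and 47.4 CPM in E+ pools. In E– embryos 3 of the 4 pools lay above every E+ pool, and the groups overlapped through E– replicate 2 and E+ replicate 3. The log2FC was 0.45 (SE 0.15, edgeR FDR 0.287), with 0.61 within lane 7 and 0.31 within lane 8. A fit of the 8 pools of 18 hpf alone takes the spread from these pools and not from all 24. In that fit ckma was called (log2FC 0.45, edgeR FDR 0.0334). It also called more of all genes at 18 hpf than the main fit, as counted in the closing section.

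The other fibre genes had values above 0 at 18 hpf and were not called. mylpfa had 328, 267, 316 and 269 CPM in E– pools against 230, 216, 288 and 243 CPM in E+ pools (log2FC 0.27, SE 0.23, edgeR FDR 0.787). tpma had 302, 203, 275 and 258 CPM in E– pools against 207, 181, 246 and 238 CPM in E+ pools (log2FC 0.25, SE 0.16, edgeR FDR 0.658). actc1b was nearest to 0, with 958, 731, 910 and 769 CPM in E– pools against 741, 759, 903 and 752 CPM in E+ pools (log2FC 0.09, SE 0.20, edgeR FDR 0.935). The regulators stood at −0.12 (myf5, SE 0.15), −0.11 (myod1, SE 0.11) and −0.10 (myog, SE 0.25), with edgeR FDRs from 0.846 to 0.952. The 95% intervals of these log2FCs (normal approximation) reached from −0.42 to 0.18 for myf5 and from −0.33 to 0.12 for myod1.

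At 24 hpf the log2FCs of the 7 lay between −0.13 (myod1) and 0.11 (myf5), and edgeR FDRs ran from 0.907 to 1.00. ckma stood at −0.04 (SE 0.15), with 509.5 to 571 CPM in E– pools and 470.2 to 675 CPM in E+ pools. tpma stood at 0.00 (SE 0.16), and its 95% interval reached from −0.30 to 0.31. For ckma, mylpfa, actc1b and tpma the E+ pools scattered more, with E+ replicate 3 the highest of all 8 pools at 24 hpf for each of the 4.

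Whether the difference between diets itself changed with time was tested by the interaction. 0 of the 7 were called, beside 0.0153% of all genes tested, with ckma the lowest of the 7 (edgeR unadjusted p 0.00223, FDR 0.361). DESeq2 called none of the 7 in this test, and 2 of the 7 had an unadjusted p under 0.05 in edgeR, as did 1312 of all 19597 genes tested. Between 12 and 18 hpf the E– to E+ log2FC of ckma moved by 1.02 (SE 0.27, edgeR FDR 0.178), that of myog by 1.07 (SE 0.45, edgeR FDR 0.558) and that of tpma by 0.56 (SE 0.24, edgeR FDR 0.572), and 0.0408% of all genes were called in that contrast. For ckma this contrast was called in 4 of 33 alternatives, which again include the main fit read at FDR under 0.05. Its values ran from 0.68 to 1.49 (edgeR FDR 0.00300 to 0.781). The fit of all genes with a read called it (FDR 0.00300), as did the replicate block (FDR 0.0975). It was also called without E– replicate 3 (FDR 0.0149) or E+ replicate 2 (FDR 0.0582) of 12 hpf. For tpma it was called without E+ replicate 2 of 12 hpf (edgeR FDR 0.0712). Between 18 and 24 hpf ckma moved by −0.49 (SE 0.21, edgeR FDR 0.998), and 0.0% of all genes were called, with 925 at an unadjusted p under 0.05. Without E– replicate 3 of 12 hpf ckma was called in the interaction (edgeR FDR 0.0506) and over the 3 times (edgeR FDR 0.0198), and without E+ replicate 2 of 12 hpf actc1b was called over the 3 times (edgeR FDR 0.0926).

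Shares of reads within a pool do not depend on the scaling of libraries. They were chosen as measures after the values were seen. Of the reads of the 3 regulators, myf5 took 70.3%, 68.0%, 64.2% and 67.5% in the 4 E– pools at 12 hpf and 58.6%, 62.3%, 63.6% and 62.8% in the 4 E+ pools. The E– pools all lay above the E+ pools, at a mean of 67.5% ± 2.51 against 61.8% ± 2.19 (SD, n = 4 each; two-sided exact permutation test, p = 0.0286, the smallest that 4 against 4 allows; 0.171 after adjustment over 18 such comparisons). The myog share was 1.03% ± 0.49 in E– pools and 2.49% ± 1.28 in E+ pools at 12 hpf (SD, n = 4 each; exact permutation p = 0.0571, adjusted 0.206).

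The make-up of the regulator reads at the later times is given without a test of its change over time. At 18 hpf myf5 took 19.8% ± 2.08 in E– and 19.9% ± 1.63 in E+ pools, myod1 63.8% ± 1.94 and 63.6% ± 0.62, and myog 16.4% ± 2.45 and 16.4% ± 2.01 (SD, n = 4 each). At 24 hpf myf5 took 10.5% ± 2.60 in E– and 8.95% ± 2.47 in E+ pools (exact permutation p = 0.429, adjusted 0.643), and myog 16.4% ± 2.7 and 15.7% ± 3.38 (exact permutation p = 0.714, adjusted 0.857). myod1 took 73.1% ± 4.06 of the regulator reads in E– pools and 75.4% ± 2.48 in E+ pools (SD, n = 4 each).

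**Figure D3:**
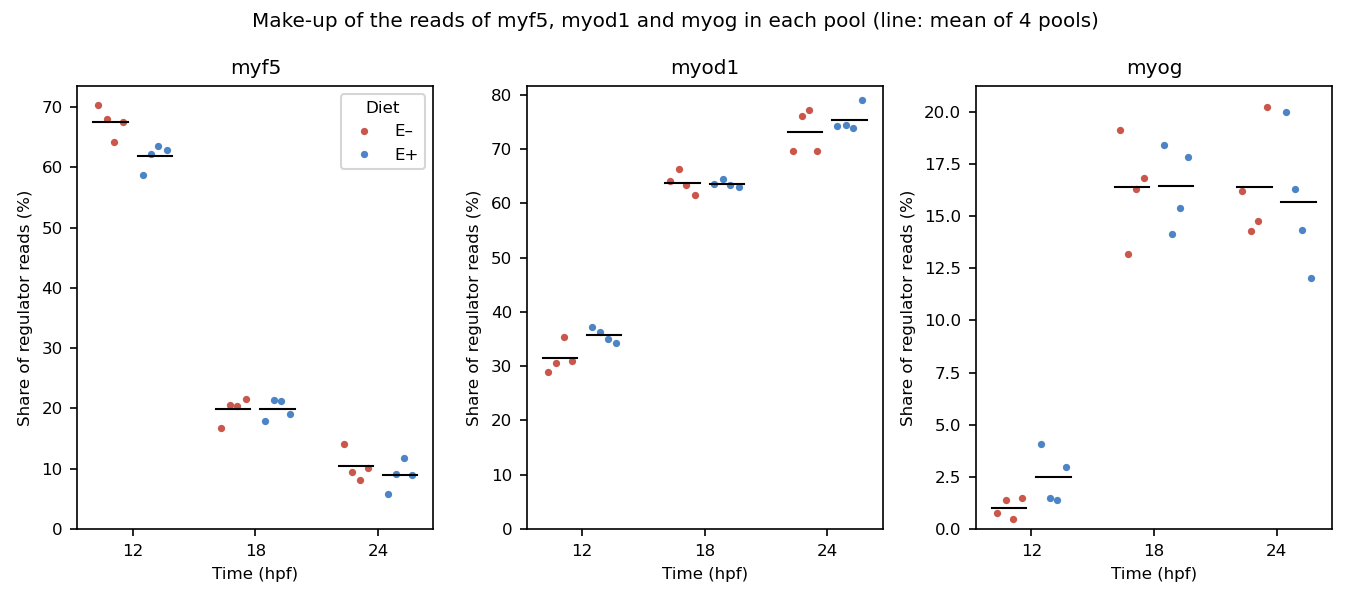
Share of the summed reads of myf5, myod1 and myog that each of the 3 took in a pool, in percent, at 12, 18 and 24 hpf, with E– pools left of E+ pools and a line at the mean of 4 pools. At 12 hpf the 4 E– pools lie at 64.2% to 70.3% for myf5, all above the 4 E+ pools at 58.6% to 63.6%, and at 18 hpf the diets overlap for each gene.

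Within the fibre genes, reads of ckma were set against those of actc1b. Such ratios were also chosen after the values were seen. Of the fibre genes at 18 hpf, ckma had the largest log2FC between the diets (0.45) and actc1b the smallest (0.09). A gap in their ratio at that time thus partly restates those values, and the adjustment below does not correct for the choice. At 18 hpf there were 8.18, 7.88, 7.92 and 8.44 ckma reads per 100 actc1b reads in the E– pools, and 5.82, 6.08, 7.01 and 6.31 in the E+ pools. All E– pools lay above all E+ pools, at a mean of 8.10 ± 0.26 against 6.30 ± 0.51 (SD, n = 4 each; two-sided exact permutation test, p = 0.0286, adjusted 0.171). The same held for mylpfa, with 34.2, 36.5, 34.7 and 35.0 reads per 100 actc1b reads in E– pools and 31.0, 28.4, 31.9 and 32.4 in E+ pools (exact permutation p = 0.0286, adjusted 0.171).

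At 12 and 24 hpf the pools of the diets overlapped in both ratios. At 24 hpf mylpfa had 69.5 ± 7.37 reads per 100 actc1b reads in E– pools and 61.9 ± 4.79 in E+ pools (SD, n = 4 each; exact permutation p = 0.114, adjusted 0.343), a wider gap than at 18 hpf with a wider spread. tpma had 39.8 ± 2.46 in E– pools and 36.6 ± 1.89 in E+ pools at 24 hpf (SD, n = 4 each; exact permutation p = 0.0571, adjusted 0.206). At 24 hpf ckma had 17.2 ± 0.80 reads per 100 actc1b reads in E– pools and 16.3 ± 1.25 in E+ pools (SD, n = 4 each; exact permutation p = 0.257, adjusted 0.514). At 12 hpf it had 9.64 ± 2.88 in E– pools and 11.3 ± 4.99 in E+ pools (SD, n = 4 each; exact permutation p = 0.571, adjusted 0.791). None of the 18 comparisons of shares and ratios had an adjusted p under 0.1. The smallest p that the exact permutation test can give with 4 against 4, 0.0286, came to 0.171 after adjustment here. Under this adjustment (Benjamini–Hochberg), measures in which the diets separated completely could pass only if more of the 18 had reached that value. The lack of a call thus does not show that the diets were alike.

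**Figure D4:**
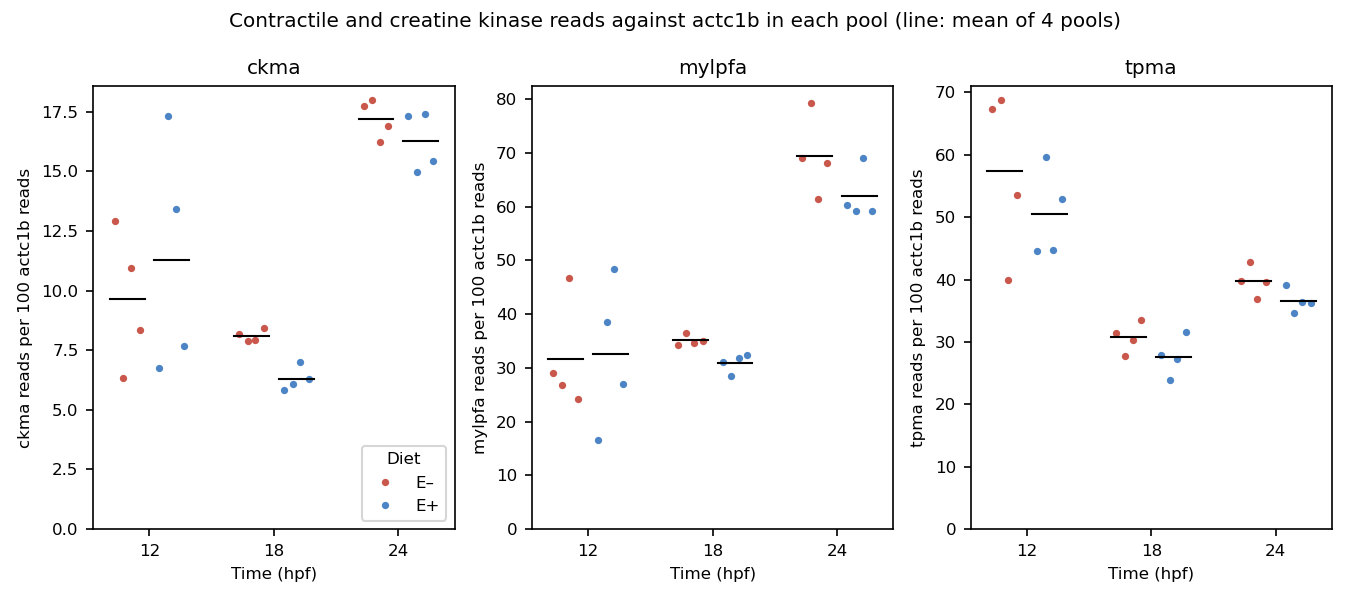
Reads of ckma, mylpfa and tpma per 100 actc1b reads in each pool at 12, 18 and 24 hpf, with E– pools left of E+ pools and a line at the mean of 4 pools. At 18 hpf the E– pools lie above the E+ pools for ckma (7.88 to 8.44 against 5.82 to 7.01) and for mylpfa (34.2 to 36.5 against 28.4 to 32.4), and at 12 hpf the pools of both diets are spread widely.

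Several of the 7 genes varied together from pool to pool. The following values are descriptions over 24 pools that share their libraries and scaling. After the mean of each group was taken away, log2 CPM of mylpfa and ckma had a Pearson r of 0.90 (Spearman rho 0.72, and r 0.74 without the 2 pools furthest from the median of mylpfa). actc1b and tpma had an r of 0.90 (rho 0.81, and r 0.72 without 2 pools). ckma and tpma had an r of 0.44 (rho 0.49, and r 0.49 without 2 pools). This lower value did not hold at each time. For ckma and tpma r was 0.34 at 12 hpf, 0.78 at 18 hpf and 0.95 at 24 hpf (8 pools each). For actc1b and tpma r was 0.93, 0.77 and 0.79 at these times. Among pairs of a regulator and a fibre gene, r was 0.55 for myod1 and actc1b (rho 0.38, and r 0.48 without 2 pools). It was 0.52 for myog and tpma (rho 0.43, and r 0.58 without 2 pools) and −0.04 for myf5 and mylpfa. For myog and ckma it was −0.32 (rho −0.13, and r −0.13 without 2 pools). Within single times the r of myog and ckma changed sign, at −0.43, 0.45 and −0.11 at 12, 18 and 24 hpf. That of myog and tpma was 0.54, 0.78 and −0.13.

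Pools of 1 group also differed in how far they lay along the axis that separates the times. This axis is the first dimension of a multidimensional scaling (MDS) of the pools, computed without the 7 genes and the muscle lists named below (81 tested genes left out), a measure chosen after the values were seen. Muscle genes outside these lists and list genes without a symbol match were not left out. Position on the axis is thus not independent of muscle. It held 50.5% of the variance and placed the 12 hpf pools between −2.63 and −1.86, the 18 hpf pools between 0.28 and 0.51 and the 24 hpf pools between 1.79 and 2.01. At 12 hpf the E– pools lay at −2.52, −2.24, −2.27 and −2.47 and the E+ pools at −1.86, −2.63, −2.09 and −1.99. The lowest pool of each diet, E– replicate 1 and E+ replicate 2, had the lowest actc1b and tpma of its diet. Over the 8 pools of 12 hpf, Pearson's r of log2 CPM with position was 0.94 for tpma and 0.89 for actc1b. It was lower for the others, at 0.63 for myog, 0.57 for myod1, 0.55 for mylpfa, 0.49 for ckma and 0.04 for myf5.

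At 18 hpf the E– pools lay at 0.51, 0.32, 0.51 and 0.48 on this axis and the E+ pools at 0.29, 0.28, 0.44 and 0.29. The E+ pool that lay furthest along, replicate 3, had the highest ckma, mylpfa, actc1b and tpma of the E+ pools, and the E– pool that lay nearest to the others, replicate 2, had the lowest of the E– pools in each of the 4. Over the 8 pools of 18 hpf, Pearson's r with position was 0.94 for ckma, 0.89 for mylpfa, 0.88 for tpma and 0.81 for actc1b. For the regulators it was 0.29 (myog), 0.04 (myf5) and −0.02 (myod1). The part of this position in the E– to E+ values of the fibre genes was not tested. Embryos had been staged by their morphology before pooling. Per the study's methods, only embryos that looked normal and had reached the landmarks of their stage were used. The values thus do not cover embryos seen to be abnormal or short of these landmarks. Smaller differences in stage between pools were not tested.

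**Figure D5:**
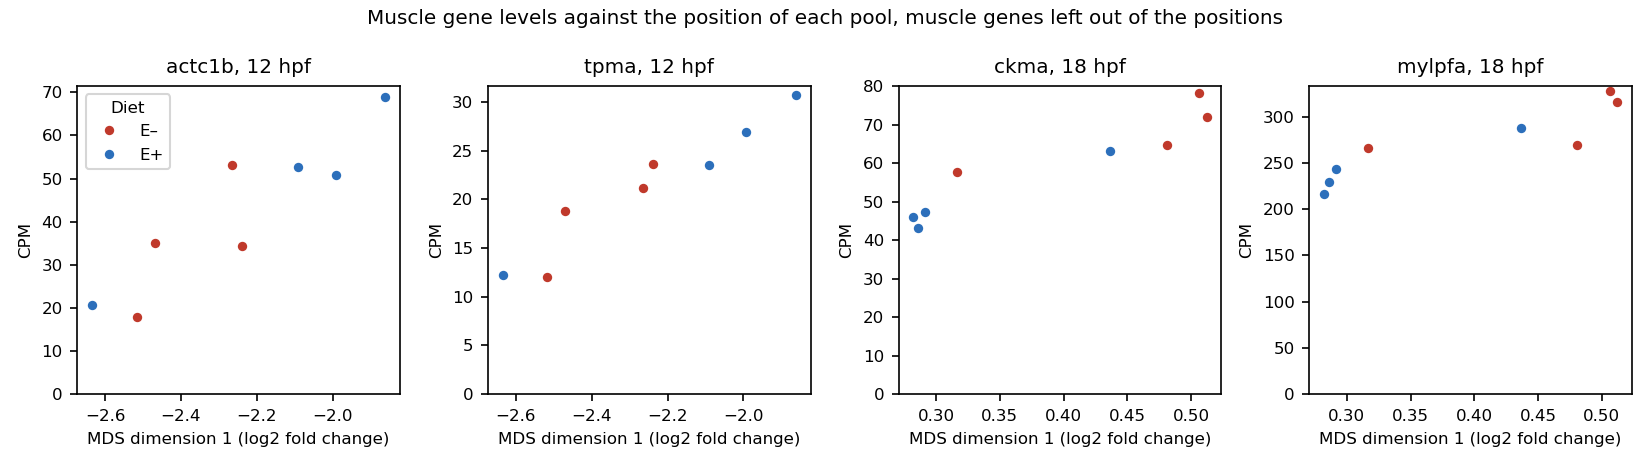
CPM of actc1b and tpma at 12 hpf and of ckma and mylpfa at 18 hpf (vertical axes) against the position of each pool on the first MDS dimension (log2 fold change units), for E– and E+ pools, muscle genes left out of the positions. Pools further to the right tend to have higher levels in each panel, and at 18 hpf 3 of the 4 E– pools (0.48 to 0.51) lie to the right of all E+ pools (0.28 to 0.44).

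Other genes with a similar course were found by Pearson's r of log2 CPM over the 24 pools, a likeness that the 3 times dominate. For mylpfa the nearest were atp2a1, the calcium pump of the muscle reticulum (r 0.998), and MYL1, a myosin essential light chain (r 0.996). For ckma they were the fast myosin heavy chain myhz1.3 (r 0.996) and atp2a1 (r 0.996), for tpma MYL1 (r 0.996) and an aldolase gene, ALDOA (ENSDARG00000034470, r 0.996), and for actc1b col1a1a, a collagen (r 0.997), and SRL (r 0.997). Such values were common, since 373 to 540 genes had an r above 0.95 with each of these 4.

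The regulators had fewer like them. For myf5, msgn1, a marker of presomitic mesoderm (r 0.979), and eppk1 (r 0.976) were nearest, with 94 genes above 0.95. For myog they were EFEMP2 (r 0.981) and SLC38A8 (r 0.979), with 38 genes above 0.95. myod1 had 1 such gene, oc90 (r 0.969), followed by jam2a, which encodes a receptor needed for myoblast fusion in zebrafish (r 0.942).

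Wider lists of muscle genes were followed for comparison. Counts of list genes at an unadjusted edgeR p under 0.05 between the diets are to be read beside those of all genes. These were 2079, 1792 and 1308 of 19597 at 12, 18 and 24 hpf. Of 19 other myogenic regulators tested, 14 were called higher and 4 lower at 18 than at 12 hpf in E– embryos, and 13 higher and 4 lower in E+ embryos. Of 30 genes of fast muscle contraction and calcium handling, 26 were called higher and 0 lower at that step in E– embryos, and likewise 26 and 0 in E+ embryos. From 18 to 24 hpf 27 of the 30 were called higher in E– and 25 in E+ embryos. Of 9 slow muscle genes, 8 were called higher at 18 than at 12 hpf in E– and 9 in E+ embryos. Over all genes tested, 21.7% were called higher and 20.4% lower at that step in E– embryos, and 22.8% and 21.1% in E+ embryos. From 18 to 24 hpf 11.2% of all genes were called higher in E– and 13.1% in E+ embryos.

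Between the diets, 1 of the 30 fast muscle genes was called at 12 hpf (against 0.806% of all genes). At that time 8 of the 30 had an unadjusted edgeR p under 0.05, beside 2079 of all 19597 genes. Of the 30, 22 lay below 0, and the list median was −0.20 (−0.002 over all genes). The gene called was MYOM1 (ENSDARG00000061249), a protein of the sarcomere's M-band. It had 4.59, 5.77, 4.77 and 3.21 CPM in E– pools and 8.83, 7.24, 7.31 and 6.32 CPM in E+ pools. The groups did not overlap (log2FC −0.70, SE 0.16, edgeR FDR 0.0401). MYOM1 was called at 12 hpf in 26 of 33 alternative fits. In the others the FDR was 0.105 without E+ replicate 1, 0.105 without E– replicate 1 and 0.122 without E– replicate 4, 0.420 within lane 7, 0.219 within lane 8, 0.405 with the 12 hpf pools fitted alone and 0.102 with the newer quasi-likelihood method. Over the 3 times MYOM1 had an edgeR FDR of 0.0998, and it was called there in 6 of 32 alternative fits. At 18 hpf 0 of the 30 were called, 3 had an unadjusted p under 0.05 in edgeR, 21 lay above 0 and the median was 0.12, and at 24 hpf 0 were called, 1 had an unadjusted p under 0.05 and the median was −0.04.

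Of the 9 slow muscle genes, 1 was called between the diets at 12 hpf, against 0.806% of all genes tested. TNNC1 (ENSDARG00000037539), a troponin C of slow and cardiac muscle, had 1.02, 3.20, 3.09 and 1.58 CPM in E– pools and 4.07, 3.06, 3.65 and 4.93 CPM in E+ pools. The lowest E+ pool lay within the E– range (log2FC −0.83, SE 0.20, edgeR FDR 0.0550). The ID was matched from the list symbol tnnc1b. The study lists a gene named tnnc1a among those with the largest increases in E– embryos at its earliest time. Values of tnnc1a are not given here, so the lower TNNC1 does not stand for troponin C genes in general. TNNC1 was called at 12 hpf in 26 of 33 alternative fits. In the others the FDR was 0.152 without E+ replicate 4, 0.219 without E– replicate 1 and 0.140 without E– replicate 4, 0.624 within lane 7, 0.177 within lane 8, 0.548 with the 12 hpf pools fitted alone and 0.117 with the newer quasi-likelihood method. smyhc1, the slow myosin heavy chain, had a log2FC of −0.76 (SE 0.27, edgeR FDR 0.238) at that time. At 12 hpf 2 of the 9 had an unadjusted p under 0.05 in edgeR, beside 2079 of all 19597 genes. At 18 and 24 hpf 0 of the 9 were called, and 0 had an unadjusted p under 0.05 in edgeR.

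None of the 19 other regulators was called between the diets at any time in edgeR, with 4, 2 and 0 of them at an unadjusted p under 0.05 at 12, 18 and 24 hpf. MYMK, the fusion factor myomaker, had the lowest p over the 3 times, with log2FCs of −0.94 (SE 0.35) at 12 hpf, 0.56 (SE 0.19) at 18 hpf and 0.05 (SE 0.19) at 24 hpf, and an edgeR FDR of 0.170 over the 3 times. jam2a had a log2FC of −0.66 (SE 0.21, edgeR FDR 0.182) at 12 hpf. Of 7 chaperone genes of myosin and the myofibre, 0 were called in edgeR at any time, with 1, 1 and 0 at an unadjusted p under 0.05 at 12, 18 and 24 hpf.

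Of 13 genes of muscle energy metabolism, 0 were called between the diets at any single time in edgeR (2, 4 and 2 at an unadjusted p under 0.05 at 12, 18 and 24 hpf). Over the 3 times 1 was called, against 1.12% of all genes tested. A second aldolase gene, ALDOA (ENSDARG00000011665), stood higher in E– embryos at each time, with log2FCs of 0.40 (SE 0.12) at 12 hpf, 0.43 (SE 0.12) at 18 hpf and 0.34 (SE 0.12) at 24 hpf (edgeR FDR 0.0272 over the 3 times). Over the 3 times ALDOA was called in 31 of 32 alternative fits, among them all 24 that left out 1 pool (highest FDR 0.0585). The exception was the fit within lane 7 (FDR 0.733). It averaged 269.7 ± 69.3 CPM in E– pools and 205 ± 29.0 CPM in E+ pools at 12 hpf, and 163 ± 6.18 CPM in E– pools and 122 ± 13.0 CPM in E+ pools at 18 hpf (SD, n = 4 each). Unlike the 4 fibre genes, it was not at its highest at 24 hpf. PYGM, the muscle glycogen phosphorylase, was matched to 2 gene IDs. For 1 of them the log2FCs were 0.38 (SE 0.20), 0.34 (SE 0.21) and 0.68 (SE 0.19) at 12, 18 and 24 hpf, with an edgeR FDR of 0.101 over the 3 times. Values of the other are not given here.

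Markers of other cell types were followed over the same pools. Of 10 presomitic mesoderm markers, 0 were called between the diets at any time, and their summed level was 830 to 1209 CPM in E– pools and 912 to 961 CPM in E+ pools at 12 hpf. At 18 hpf it was 290.1 to 319.5 CPM in E– pools and 302 to 324 CPM in E+ pools. Of 10 heart markers, which could add to muscle transcripts, 0 were called, with summed levels of 45.3 to 79.4 CPM in E– pools and 44.3 to 52.5 CPM in E+ pools at 12 hpf, and 92.5 to 109 CPM and 95.4 to 115 CPM at 18 hpf.

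Of 6 epidermal markers, 1 was called between the diets at 18 hpf, against 0.398% of all genes tested. It was epcam, higher in E– embryos (log2FC 0.44, SE 0.11, edgeR FDR 0.0971, and called in 10 of 24 fits that left out 1 pool). The FDR was 0.103 with the replicate block, 0.113 with a lane term, 0.550 within lane 7 and 0.692 within lane 8. All 6 lay above 0 at 12 and at 18 hpf, and 4 lay above and 2 below 0 at 24 hpf. At 18 hpf the summed level of the 6 was 7199 to 8443 CPM in E– pools and 6615 to 7365 CPM in E+ pools. It was 4600 to 5913 CPM and 4382 to 5690 CPM at 12 hpf, and 9283 to 10027 CPM and 8586 to 9323 CPM at 24 hpf. The lists of 7 notochord, 9 neural, 6 red blood cell and 7 housekeeping genes had 0 called between the diets at each time. At an unadjusted p under 0.05 in edgeR, there were 0, 0 and 3 presomitic, 0, 1 and 0 heart, 1, 1 and 1 notochord, 2, 0 and 0 neural, 2, 0 and 1 red blood cell, 1, 2 and 1 epidermal and 1, 1 and 0 housekeeping genes at 12, 18 and 24 hpf. The part of these levels in the values of the muscle genes was not tested.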

How the data were processed

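RNA of whole-embryo pools was sequenced from the 3′ end (single-end reads). Per the study's methods and the submitters' processing notes, reads were trimmed with bbduk, checked with FastQC 0.11.5 and aligned to the zebrafish genome GRCz11 with STAR 2.7.3a. The authors deposited whole-number counts of reads per gene, not normalized, with 4 rows of reads assigned to no gene that were left out here. Of the reads of a pool, 52.5% to 60.9% were counted on genes, 6.60% to 13.2% were unmapped and 5.65% to 7.96% mapped to several places and were tallied apart, so that reads shared by close paralogues may be missing. The strand used in counting is not given in the sources used here.

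Counts were scaled by TMMwsp and filtered with filterByExpr, and 1 quasi-likelihood model of the 6 groups was fitted to all 24 pools with edgeR 4.0.16 in R 4.3.3. P-values were adjusted over 19597 genes, and FDR under 0.1 was called. SE is the log2FC divided by the square root of F. Alternatives were DESeq2 1.42.0, TMM, no filter, the newer quasi-likelihood method, a lane term, single lanes, a replicate block, the compared groups alone, FDR 0.05 and each pool left out. The 7 genes and the 12 lists (132 symbols, 11 without a match) were chosen with earlier results of these data known. Besides the 7, the text names the 2 genes nearest to each by Pearson's r, list genes called between the diets, and list genes with the lowest p over the 3 times. smyhc1 and jam2a at 12 hpf were singled out after their values were seen. Paralogues were matched by symbol, with a final a or b dropped where the full symbol had no match. ryr1a of the slow list and ryr1b of the fast list were each matched to 2 IDs, so these lists may share genes. The fits were tested on simulated counts.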

Additional observations from a re-analysis of the deposited data

Results flagged for a closer look

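Of 42 sets of 4 pools (7 genes in 6 groups), 3 held a pool whose distance from its nearest neighbour, divided by the range of the set, exceeded Dixon's critical value for 4 values, where chance gives about 2.1. myf5 was at 5.51 CPM in E– replicate 1 at 24 hpf, with the other E– pools at 3.67 to 3.75 CPM. mylpfa was at 2521 CPM in E– replicate 2 at 24 hpf, with the others at 2025 to 2052 CPM. actc1b was at 902.6 CPM in E+ replicate 3 at 18 hpf, with the others at 741 to 759 CPM. None of the 3 genes was called between the diets at these times.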

How the results depend on the processing

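Of the 7 genes, 0 were called between the diets at each time, over the 3 times and in the interaction. Testing all genes with a read called 3 at 12 hpf, 1 at 18 hpf, 1 over the 3 times (ckma, edgeR FDR 0.00542) and 1 in the interaction (ckma, edgeR FDR 0.00828). DESeq2 called 1 at 12 hpf (myog, FDR 0.0602), and a fit of the compared groups alone called 1 at 18 hpf. With pools left out the count ran from 0 to 3 at 12 hpf, from 0 to 1 over the 3 times and from 0 to 1 in the interaction. With the replicate number as a block, 1 was called over the 3 times (ckma, edgeR FDR 0.0759), and ckma was called in the change of the diet difference from 12 to 18 hpf (edgeR FDR 0.0975), with no other call among the 7 changed by the replicate block. Pools of the same number did not deviate together (0 of 12 correlations above 0.1, from −0.05 to 0.04, with 2 of 12 pools closest to their own number). Over all genes, the count called at 12 hpf was 158, against 307 in DESeq2, 338 with all genes tested, 7 with the compared groups alone, 0 within lane 7 and 89 within lane 8. At 18 hpf it was 78 against 199, 177, 312, 3 and 5 in the same fits, and at 24 hpf 0 against 23, 26, 21, 2 and 7. Over the 3 times it was 220 against 637 in DESeq2, 573 with all genes, 13 within lane 7 and 51 within lane 8, and in the interaction 3 against 104, 122, 0 and 3. Among single values of the 7, 2564 kept their side of the threshold and their sign, 23 passed it newly, 3 no longer passed it, no called value changed sign, and 38 that were called in neither fit did. The causes were not tested. myog at 12 hpf rested on 4 to 18 reads per E– pool and 13 to 56 per E+ pool, which limits its precision.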
